A study of Bos taurus with 4 samples.

Results

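The genes described here encode the last stages of oxidative phosphorylation: complex III, complex IV and the ATP synthase (complex V), with cytochrome c and several assembly factors. They were chosen by platform symbol, as every array probe whose symbol begins with UQCR, COX or ATP5 or is CYC1 or CYCS. This gave 67 of 43794 probes and 47 of 15216 named genes. The platform uses older symbols, and 19 of the 47 were updated through RefSeq synonyms. ATP5L is thus given below as ATP5MG, ATP5G1 as ATP5MC1 and COX4 as COX4I1.

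Bovine (Bos taurus) morulae were produced in vitro from slaughterhouse ovaries, matured and fertilized in vitro, and cultured in synthetic oviductal fluid. High glucose embryos (HG) had 5 mM glucose from day 0 to day 3 and control embryos (CTL) had 0.2 mM, after which both were kept in control medium to day 5 and collected 120 h after fertilization. Both groups carry the effects of in vitro production, and each sample is a pool of 10 embryos, so embryos within a pool were not measured singly. Each of 4 arrays of 2 colours on 1 slide set 1 HG pool against 1 CTL pool. HG was labelled with Cy5 on arrays 1 and 2 and with Cy3 on arrays 3 and 4. The comparison asks whether glucose during early cleavage left a difference in the transcripts of the morula.

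Complex III, also called the cytochrome bc1 complex, passes electrons from ubiquinol to cytochrome c. Complex IV, cytochrome c oxidase, passes them from cytochrome c to oxygen. Both pump protons across the inner mitochondrial membrane, and the ATP synthase uses the returning protons to turn a ring of c subunits whose rotation drives ATP formation in the F1 head. The mammalian embryo before implantation depends on oxidative phosphorylation for much of its ATP, and compaction of the morula comes before the rise in energy use of the blastocyst. Most subunits of these complexes are encoded in the nucleus and imported, while the catalytic cores of complexes III and IV include subunits of the mitochondrial genome, for which no probe had a matching symbol here.

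Values are log2 ratios of HG over CTL, turned by the recorded dyes, as mean ± SD over the 4 arrays (n = 4). A value of -1 means that the HG pool had a signal lower by a factor of 2. A probe was tested if its signal exceeded the mean plus 2 SD of the negative control spots in all 4 HG pools or in all 4 CTL pools. A gene was represented by its brightest tested probe. This left 8874 genes to test, and 62 of the 67 member probes and 43 of the 47 member genes were among them. The median raw probe intensity ranged from 210 to 287 for Cy3 and from 153 to 163 for Cy5, and between 50.3 and 63.2% of probes were above background in a pool. The number of arrays, 4, limits the precision.

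Arrays 1 and 3 stood apart from the others. Across 20226 tested probes, which are not independent replicates, their log ratios correlated at -0.44 (Pearson), against 0.23 between arrays 2 and 4 and 0.05 to 0.13 for the other 4 pairs. Most markers of stromal cells lay far from 0 on arrays 1 and 3. The medians over 14 tested genes were -2.20, 0.05, 2.09 and -0.90 on arrays 1 to 4. The 9 tested cumulus and granulosa cell markers had medians of -1.48, 0.08, 1.59 and -0.16. In both lists most members went this way (10 of 14 and 7 of 9 were below 0 on array 1 and above 0 on array 3), although LHCGR, AMH and FOXL2 were above background in no pool. Of the embryo markers, POU5F1, NANOG, KRT8, KRT18 and TFAP2C were above background in all 8 pools. CDX2, CDH1, EOMES, GATA3 and SOX2 did not meet the criterion. Of the 5 embryo markers above background in all 8 pools, 4 had means below 0. KRT8, an epithelial keratin, was at -1.69, -2.78, -1.84 and -0.92, and its mean of -1.81 was the lowest of all tested genes. KRT18, its partner, was at 0.29, -2.73, -2.0 and -1.11, and POU5F1, a pluripotency factor, at -0.57, -0.17, -1.04 and -0.38. TFAP2C had a mean of -0.09, and NANOG went the other way, at -0.27, 1.19, 0.17 and 0.78 (0.47 ± 0.65). The part of the embryo markers' differences, and of other cells, in the values below was not tested. The medians of the 3 complexes are given also for arrays 2 and 4 and with the sign of array 3 turned. On arrays 2 and 4 the stromal markers lay closer to 0 than on the other arrays, though not at 0 on array 4, while both keratins were lowest on array 2.

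Genes of the respiratory complexes lay mostly below 0. Of the 34 tested subunit genes, 31 had a mean below 0 (91.2%), against 53.8% of all tested genes, and the median of their means was -0.33, against -0.02 over all tested genes. The ATP synthase subunit ATP5MG, the cytochrome c oxidase subunit COX4I1 and the c-ring gene ATP5MC1 were each lower in HG on all 4 arrays, with signals lower by factors of 1.76, 1.6 and 1.5. No single gene passed the adjusted threshold of limma, neither a member (adjusted p between 0.762 and 1) nor any of the 8874 genes (0%). By unadjusted p, 7 of the 34 subunit genes lay under 0.05 in the lower direction and 0 in the higher. Over all tested genes the shares were 4.11% and 2.38%. The count of 7 was 8 without array 1, 4 without array 2, 7 without array 3 and 2 without array 4. With the sign of array 3 turned it was 2. Of all 8874 genes, 576 lay under 0.05 in either direction by limma over the 4 arrays. That number was 710, 269, 856 and 273 without arrays 1, 2, 3 and 4, and 1013 with array 3 turned. In bulk RNA of whole pools, fewer cells of a type and less RNA per cell cannot be told apart.

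Signs were next counted across the arrays. Lower on all 4 arrays were 8 of 34 subunit genes (23.5%), against 8.03% of all tested genes, and 0 were higher on all 4, against 6.03%. Most subunits were bright: 26 of the 34 lay in the brightest quintile of tested genes, where 10.1% of all genes were lower on every array and 58.3% had a mean below 0. Within that quintile, 24 of the 26 subunits had a mean below 0 and 8 were lower on every array. These are descriptions of a group chosen with earlier results known, and no test was made of the group.

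**Figure D1:**
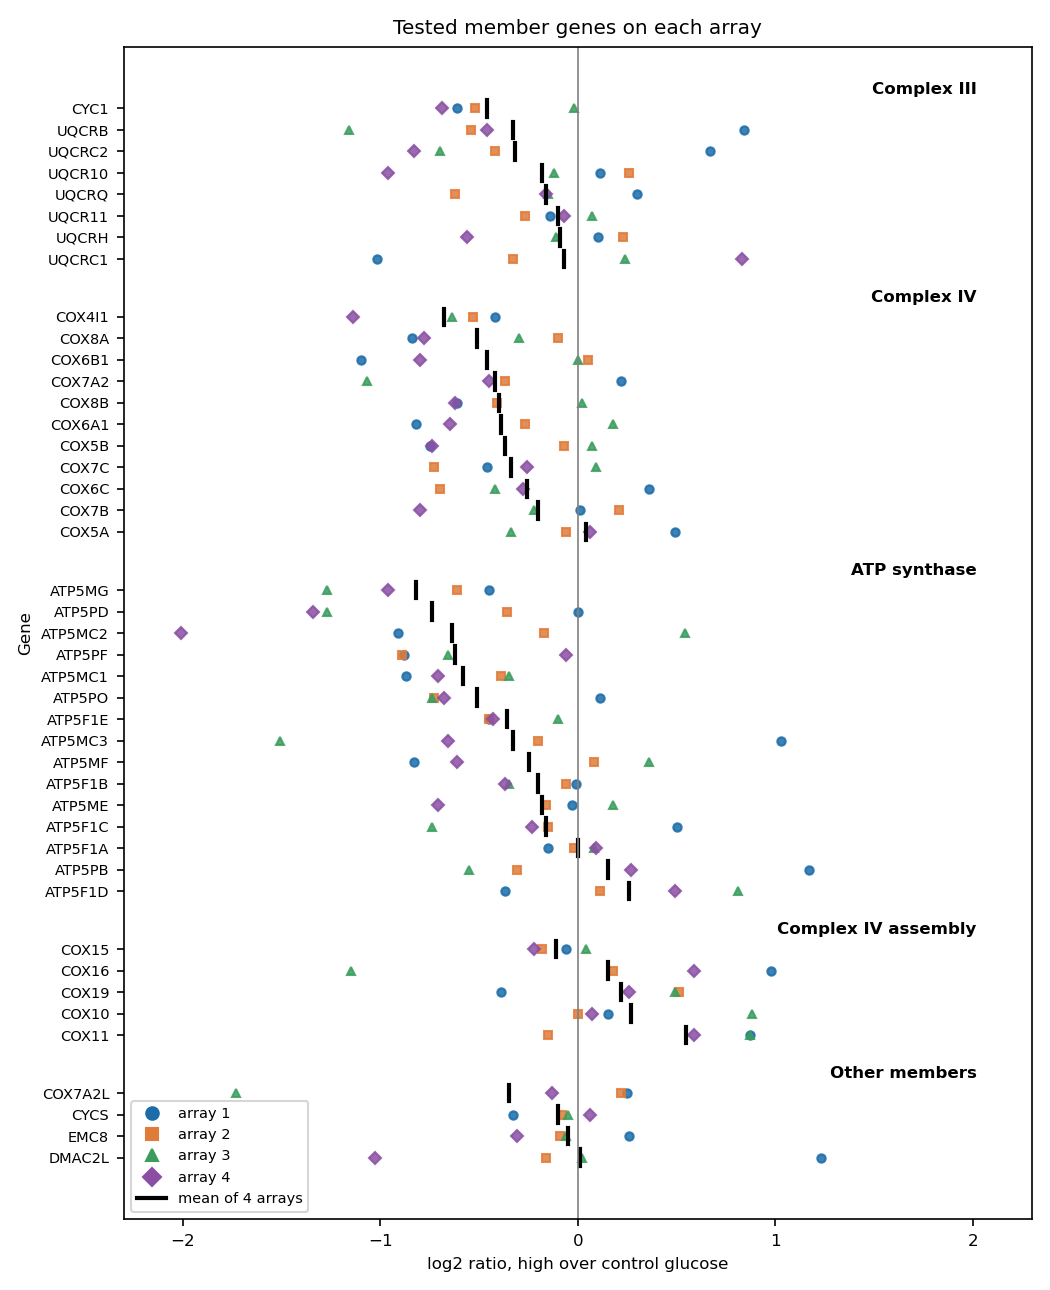
Each row is a tested member gene and each point the log2 ratio of HG over CTL on 1 array (x axis), with a black bar at the mean of the 4 arrays. Most bars of complex III, complex IV and the ATP synthase stand left of 0, down to -0.82 for ATP5MG, while 4 of the 5 assembly genes stand right of it.

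Complex III had 8 tested subunit genes of 8 on the array, all with means below 0, between -0.46 and -0.07, and a median of -0.17, which was -0.29 without array 1. Cytochrome c1, CYC1, the haem protein that hands electrons to cytochrome c, was at -0.61, -0.52, -0.02 and -0.69 on arrays 1 to 4 (-0.46 ± 0.30, limma unadjusted p = 0.048 and adjusted p = 0.762). It was the only complex III gene below 0 on all 4 arrays, and on array 3 it stood next to 0. A dimmer probe of CYC1 did not show this, at 0.10 ± 0.14, with 0.12, -0.01, 0.29 and 0.00 on the same arrays.

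UQCRB, a small subunit beside the ubiquinone-binding sites, was at 0.84, -0.54, -1.16 and -0.46 (-0.33 ± 0.84). UQCRC2, the second core protein on the matrix side, was at 0.67, -0.42, -0.70 and -0.83 (-0.32 ± 0.68). In both genes HG was above CTL on array 1 and below it on the other 3 arrays. The remaining small subunits UQCR10, UQCRQ, UQCR11 and UQCRH had means between -0.18 and -0.09, each less than its SD. UQCRH, the acidic hinge protein at cytochrome c1, was above background in 3 of the 4 CTL pools. UQCRC1, the first core protein, was at -1.02, -0.33, 0.24 and 0.83 (-0.07 ± 0.79), a spread from one side of 0 to the other, and its other tested probe had a mean of 0.36. That probe was above background in 2 of 4 CTL pools.

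Cytochrome c itself, CYCS, carries electrons between complexes III and IV in the intermembrane space. It was at -0.33, -0.08, -0.05 and 0.06, with a mean of -0.10 ± 0.17 that was smaller than the spread between arrays. Its signal lay between 14.94 and 15.11 (normalized log2) in the HG pools and between 15.0 and 15.29 in the CTL pools, so the groups overlapped.

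Complex IV had 11 tested subunit genes of 14 on the array, of which 10 had a mean below 0, with a median of -0.39. COX4I1, the ubiquitous form of the subunit through which ATP inhibits the enzyme, was at -0.42, -0.53, -0.64 and -1.14 (-0.68 ± 0.32, limma unadjusted p = 0.0119 and adjusted p = 0.762). Its normalized log2 signal was 10.96, 10.94, 11.16 and 10.98 in the HG pools and 11.38, 11.48, 11.79 and 12.12 in the CTL pools. Every HG pool was lower than every CTL pool, and the HG pools differed less among themselves (SD 0.10) than the CTL pools did (SD 0.34). In the authors' deposited table the same probe was at -0.02, -0.46, -0.79 and -1.2, so the value of array 1 was next to 0 there. EMC8, still named COX4NB on the platform, is the chromosomal neighbour of COX4I1 and encodes a subunit of a membrane protein insertion complex, not of the respiratory chain. It was at 0.26, -0.09, -0.06 and -0.31 (-0.05 ± 0.23).

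COX8A, the ubiquitous form of the smallest subunit, was at -0.84, -0.10, -0.30 and -0.78 (-0.51 ± 0.36, limma unadjusted p = 0.0454 and adjusted p = 0.762). It was below 0 on every array, but pools of the groups overlapped, with 11.81 to 13.46 in HG and 12.65 to 13.77 in CTL. COX6B1, which faces the intermembrane space, was at -1.10, 0.05, 0.00 and -0.80 (-0.46 ± 0.58), with low values on arrays 1 and 4 and none on arrays 2 and 3. The liver-type subunit COX6A1 followed a like course at -0.82, -0.27, 0.18 and -0.65 (-0.39 ± 0.45), as did the zinc-binding subunit COX5B at -0.75, -0.07, 0.07 and -0.74 (-0.37 ± 0.43). COX7C, a small transmembrane subunit, was at -0.34 ± 0.35 and below 0 on arrays 1, 2 and 4.

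COX7A2, the liver-type form of subunit VIIa, had another course, at 0.22, -0.37, -1.07 and -0.45 (-0.42 ± 0.53). COX6C, another transmembrane subunit, was likewise above 0 on array 1 (0.36) and below it on arrays 2 to 4 (-0.26 ± 0.45). COX7B, which was dim, was at 0.01, 0.21, -0.22 and -0.80 (-0.20 ± 0.43). COX5A, the matrix-side subunit, was the only one with a mean above 0, at 0.49, -0.06, -0.34 and 0.06 (0.04 ± 0.35).

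Tissue forms of complex IV subunits differed in whether they could be seen at all. The heart and muscle form COX6A2 was above background in none of the 8 pools, and COX6B2, the testis form, in 1 CTL pool. COX7A1, the other muscle form, passed in 2 HG pools and 1 CTL pool. Their ubiquitous or liver-type counterparts COX6A1, COX6B1 and COX7A2 were above background in all 8. COX8B was an exception among the muscle forms, as it was above background in all 8 pools. It was at -0.61, -0.41, 0.02 and -0.62 (-0.40 ± 0.30, limma adjusted p = 0.793), close to 0 on array 3. Of the muscle markers on the array, MYL2 and TNNT2 were above background in no pool and ACTA1 in 1 pool of each group, while ACTC1 was above background in all 8 and was at -0.63 on array 1 and 1.22 on array 3. COX7A1, below the criterion, had a ratio of 1.32 on array 3 and -0.65, -0.39 and -0.31 on the others.

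All 15 ATP synthase subunit genes that matched the symbol rule were tested. Means were below 0 for 13, the median was -0.33, and 5 were lower on every array. Of these 5, 2 belong to the F1 head and 1 each to the c ring, the peripheral stalk and the membrane part. The median was -0.18 without array 4.

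In the F1 head, which makes ATP, the genes of the α and β subunits were close to 0 and varied little. ATP5F1A (α) was at -0.15, -0.02, 0.08 and 0.09, with a mean of 0.00 ± 0.11. ATP5F1B, the catalytic β subunit, was at -0.01, -0.06, -0.35 and -0.37 (-0.20 ± 0.19), below 0 on every array but by little on arrays 1 and 2. Its HG pools (14.62 to 14.90) were nonetheless all lower than its CTL pools (14.91 to 14.99). ATP5F1E, the ε subunit, was at -0.45, -0.45, -0.10 and -0.43 (-0.36 ± 0.17, limma adjusted p = 0.793), a steady value on 3 arrays and a smaller one on array 3. The rotor subunit γ, ATP5F1C, was at -0.16 ± 0.51. ATP5F1D, the δ subunit, was the member of the complex with the highest mean, at -0.37, 0.11, 0.81 and 0.49 (0.26 ± 0.51). Over these 5 genes the median of the SDs was 0.19, against 0.41 for all 15 subunits. ATP5F1A and ATP5F1B were among the brightest members, at mean log2 signals of 15.06 and 14.86. In COX5A the brightest of 4 probes had the smallest SD (0.35, against 0.50 to 0.76). In ATP5F1C the brighter of 2 tested probes had the larger SD (0.51 against 0.39). The part of signal level in the small ratios and SDs was not tested.

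In mammals 3 loci encode the same mature c subunit of the rotating ring, with different import signals. ATP5MC1 was at -0.87, -0.39, -0.35 and -0.71 (-0.58 ± 0.25, limma unadjusted p = 0.0169 and adjusted p = 0.762). Its CTL pools were nearly alike, between 14.64 and 14.77, and every HG pool was lower, between 13.78 and 14.42. The other two c-ring genes varied more. ATP5MC2 was at -0.91, -0.17, 0.54 and -2.01 (-0.64 ± 1.09), with its largest value on array 4, and ATP5MC3 was at 1.03, -0.20, -1.51 and -0.66 (-0.33 ± 1.06), with opposite signs on arrays 1 and 3. The value on array 4 was the lowest of any member on any array.

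The peripheral stalk, which holds the head still against the turning ring, had 3 of 4 genes well below 0. ATP5PF (F6) was at -0.88, -0.89, -0.66 and -0.06 (-0.62 ± 0.39, limma unadjusted p = 0.0241 and adjusted p = 0.762). Its HG pools lay between 12.19 and 12.85 and its CTL pools between 12.92 and 13.63, without overlap, though the gap on array 4 was narrow. ATP5PD (subunit d) was at 0.00, -0.36, -1.27 and -1.34 (-0.74 ± 0.67, limma unadjusted p = 0.0432 and adjusted p = 0.762), with no difference on array 1. ATP5PO, the cap between stalk and head, was at 0.11, -0.73, -0.74 and -0.68 (-0.51 ± 0.41), nearly constant on arrays 2 to 4. ATP5PB (subunit b) differed from these, at 1.17, -0.31, -0.55 and 0.27 (0.15 ± 0.76).

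Of the small membrane subunits that help shape rows of ATP synthase dimers, ATP5MG (subunit g) had the lowest mean of all members. It was at -0.45, -0.61, -1.27 and -0.96 (-0.82 ± 0.37, limma unadjusted p = 0.00709 and adjusted p = 0.762), 63rd of the 8874 genes by p-value. Its HG pools were 12.48, 12.69, 12.43 and 12.55 and its CTL pools 12.92, 13.29, 13.69 and 13.51. All HG pools were lower than all CTL pools, and as in COX4I1 the spread was small in HG (SD 0.11) and larger in CTL (SD 0.33). The neighbouring subunits ATP5ME (e) and ATP5MF (f) did not follow it, with -0.18 ± 0.38 and -0.25 ± 0.56.

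In all, 5 of the 34 subunit genes had HG pools that were all lower than all CTL pools (COX4I1, ATP5MG, ATP5MC1, ATP5PF and ATP5F1B), against 2.22% of all tested genes, and 0 had HG pools that were all higher, against 1.35%. A mean lower by over 1.5-fold was found for 5 subunits (14.7%), namely ATP5MG, ATP5PD, COX4I1, ATP5MC2 and ATP5PF, against 4.33% of all tested genes. This count was 8 without array 1 and 2 without array 4, where the shares of all tested genes were 5.27% and 6.21%. With the sign of array 3 turned it was 1, ATP5MC2, against 9.03%. No subunit had a difference of over 1.5-fold in the higher direction, against 2.72% of all tested genes.

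**Figure D2:**
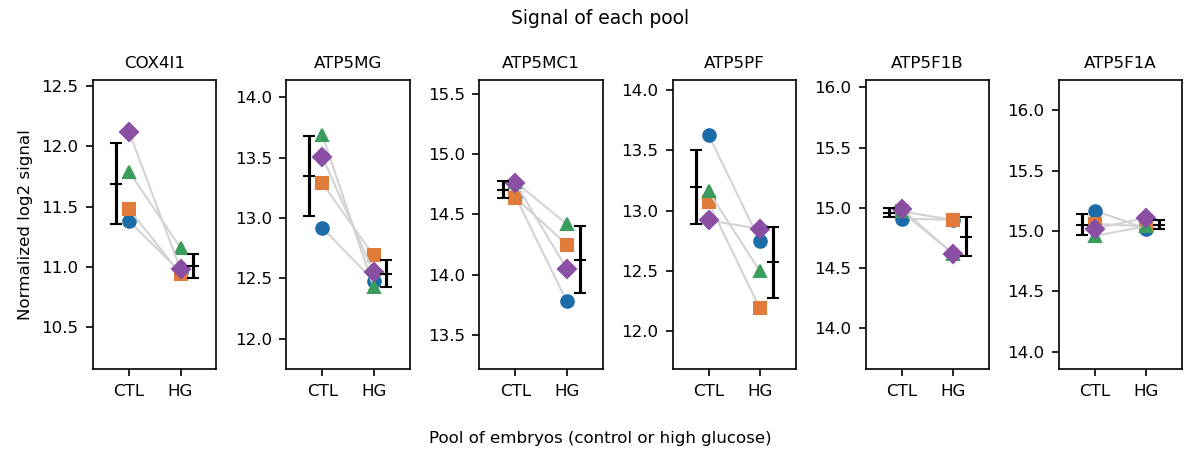
Normalized log2 signal (y axis) of each CTL and HG pool for 6 genes, with symbols coloured by array as in the plot of member genes, grey lines joining the 2 pools of an array, and bars for mean ± SD (n = 4). HG pools lie below all CTL pools for COX4I1, ATP5MG, ATP5MC1, ATP5PF and ATP5F1B, while for ATP5F1A both groups are at 15.05.

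The complexes differed among themselves by less than their values differed between arrays. On arrays 1 to 4 the median over complex III genes was 0.10, -0.38, -0.12 and -0.51. The median over complex IV genes was -0.46, -0.27, -0.22 and -0.65, and that over ATP synthase genes was -0.15, -0.20, -0.35 and -0.61. Array 4 had the lowest median of each complex, and the one median above 0 was that of complex III on array 1. All tested genes had medians between -0.04 and 0.00 on the 4 arrays.

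Complex III minus complex IV, as a difference of medians, was 0.56, -0.11, 0.10 and 0.14 (0.17 ± 0.28). Complex III minus ATP synthase was 0.25, -0.18, 0.23 and 0.10 (0.10 ± 0.20). For complex IV minus ATP synthase it was -0.31, -0.07, 0.13 and -0.04 (-0.07 ± 0.18). Each mean was smaller than its SD over the arrays, and each difference took both signs. With 4 arrays, no difference between the complexes stood out from these spreads, and none was tested.

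Complex I, the NADH dehydrogenase at the entry of the chain, gives the nearest comparison. Its genes were taken by symbols beginning with NDUFA, NDUFB, NDUFC, NDUFS or NDUFV. NDUFA4 and any NDUFAF assembly factors are thus included, so the list is not one of subunits alone. Of the 41 tested genes 33 had a mean below 0 (80.5%, against 53.8% of all tested genes). Lower on every array were 6 (14.6%, against 8.03%), and the median was -0.17. Its array medians of 0.16, -0.29, -0.32 and -0.19 were above 0 on array 1 and below it on the rest, as were those of complex III but not of the other 2 complexes. Complex II, succinate dehydrogenase with its assembly factors, had 7 tested genes, of which 4 had a mean below 0 (57.1%, near the share of all tested genes). The median over the 7 genes, subunits and assembly factors together, was -0.05. The subunits SDHA, SDHB and SDHD had means of -0.51, 0.08 and -0.30, and SDHC was at -0.66 ± 0.34. The assembly factors SDHAF1, SDHAF2 and SDHAF3 had means of 0.16, -0.05 and 0.26. For complexes III, IV and V such factors are not in the medians.

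**Figure D3:**
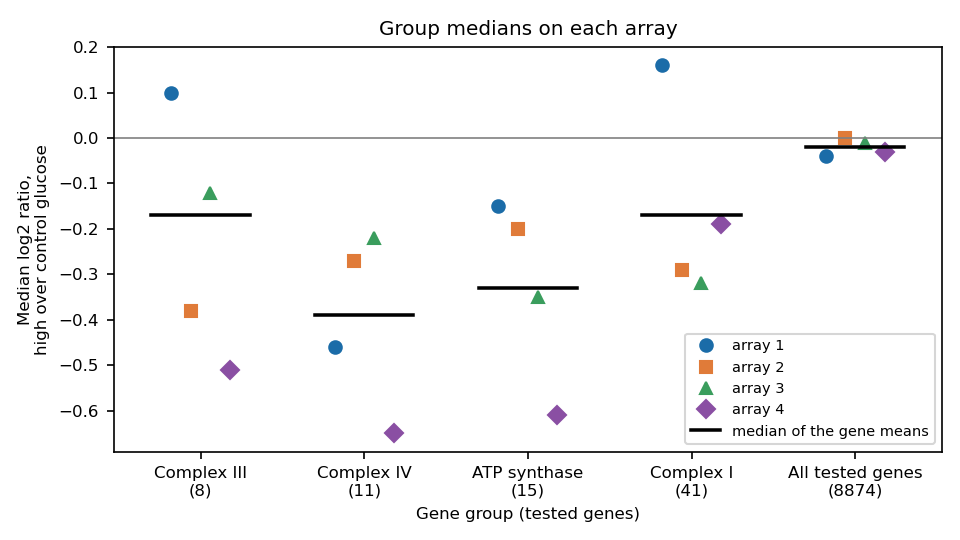
Median log2 ratio of HG over CTL (y axis) of each gene group on each array, with a black line at the median of the gene means. All 3 complexes lie below 0 on arrays 2, 3 and 4, lowest on array 4, while all tested genes stay within 0.04 of 0.

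Signs on arrays 1 and 3 split the subunits. HG was above CTL on array 1 and below it on array 3 for 14 of 34 subunit genes (41.2%), among them UQCRB, UQCRC2, COX7A2, ATP5MC3 and ATP5PB. The opposite held for 11 (32.4%), among them COX6A1, COX5B, COX8B, ATP5MF and ATP5MC2. Over all tested genes these shares were 31.0% and 32.7%. The second course is that of the stromal and cumulus markers, of which 71.4% and 77.8% were below 0 on array 1 and above it on array 3. A further 9 subunits (26.5%) were below 0 on both arrays, against 19.6% of all genes, and 0 were above 0 on both, against 16.7%. Complex III genes took the first course in 5 of 8 cases, complex IV genes in 4 of 11 and ATP synthase genes in 5 of 15.

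On arrays 2 and 4, where those markers lay closer to 0, 24 of 34 subunits (70.6%) were below 0 on both and 1 (2.94%) was above 0 on both, namely ATP5F1D. For all tested genes the shares were 28.0% and 25.9%. The medians over these 2 arrays were -0.37 for complex III, -0.44 for complex IV and -0.44 for the ATP synthase, against -0.01 for all tested genes. Over the same 2 arrays the median was -0.39 for the stromal markers and -0.16 for the cumulus and granulosa cell markers. Over all 4 arrays the medians of the means were -0.35 and -0.05 for these 2 lists. The means of COX4I1, ATP5MG and ATP5MC1 were -0.84, -0.78 and -0.55 there. When array 3 was read with the opposite sign, these 3 genes had means of -0.36, -0.19 and -0.41. The medians were then -0.10 for complex III, -0.36 for complex IV and -0.15 for the ATP synthase. The subunit median was -0.14 and 27 of 34 subunits had a mean below 0. Without array 1 the 34 subunits had a median of -0.32, and without array 3 or array 4 of -0.25.

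**Figure D4:**
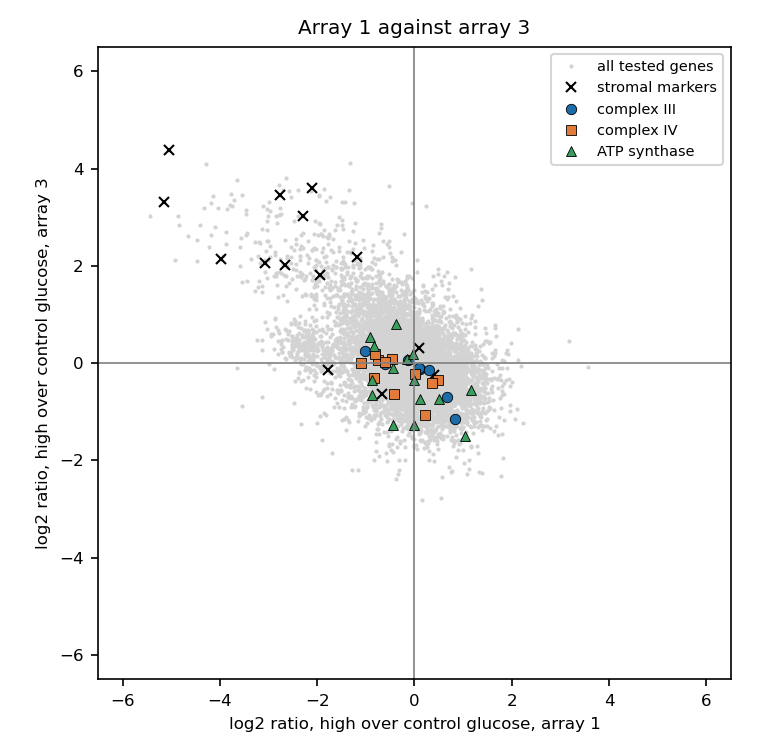
Log2 ratio of HG over CTL on array 1 (x axis) and array 3 (y axis) for all 8874 tested genes, with subunits and 14 stromal markers marked. Most stromal markers lie far to the upper left, while no subunit lies at the upper right, where both arrays are above 0.

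Several members had more than 1 tested probe, which gives a check within the array. For 7 of these 12 genes the probes had means of the same sign. In COX6A1 the 3 probes gave means between -0.39 and -0.32, and their SD within an array averaged 0.12, against an SD of 0.50 between arrays. The 3 probes of ATP5MF (0.12 against 0.56), the 2 of COX7A2 (0.06 against 0.56) and the 4 of COX5A (0.24 against 0.53) likewise differed less from each other than the arrays did. ATP5MC1 was the reverse case, with probe means of -0.60 to -0.58, an SD of 0.24 between probes and of 0.10 between arrays once the probes were averaged (-0.64, -0.65, -0.45 and -0.64). For ATP5PD both probes were lowest on arrays 3 and 4, with means of -0.76 and -0.74.

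Probes disagreed in direction for CYC1, UQCRC1, COX5A, ATP5PB and DMAC2L. Among all tested genes with several tested probes, 838 of 1841 did so. COX4I1, ATP5MG, ATP5PF and COX8A each rest on 1 probe. The c-ring and small complex IV genes belong to families with near-identical copies and processed pseudogenes, and the probes' own sequences were not used here, so cross-hybridization between copies was not tested.

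**Figure D5:**
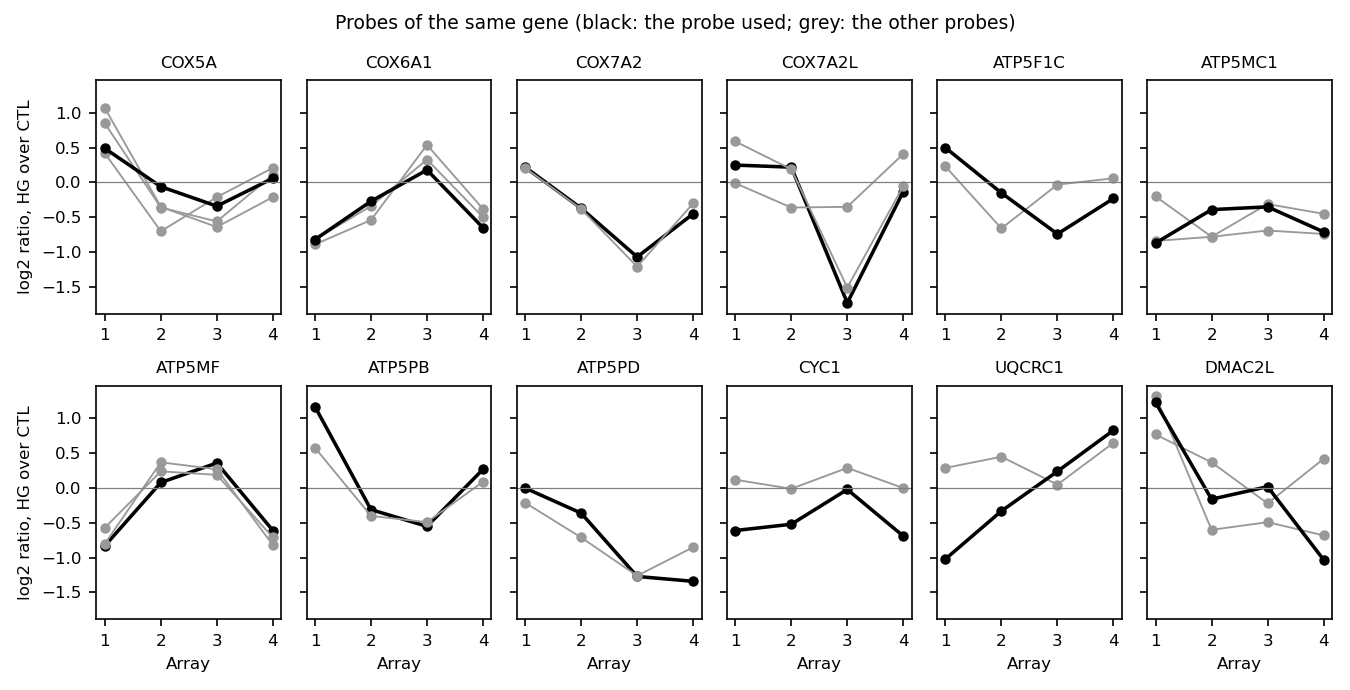
Log2 ratio of HG over CTL (y axis) on arrays 1 to 4 (x axis) for every tested probe of the 12 member genes with several probes, the probe used in black. Lines run together for COX6A1, COX7A2 and ATP5MF, while those of CYC1 stay apart, at means of -0.46 and 0.10.

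Of the 5 tested complex IV assembly genes with COX symbols, 4 had a mean above 0 (46.2% of all tested genes did), and the median was 0.22. Among assembly genes of complex IV with other symbols, SURF1 was at -0.39, SCO1 at -0.33, COA3 at -0.21, COA5 at -0.17 and SCO2 at 0.10. The whole list of genes with other symbols, most of them below 0, is counted further below. COX11, which delivers copper to the catalytic core, had the highest mean of all members, at 0.87, -0.15, 0.87 and 0.59 (0.55 ± 0.48, limma unadjusted p = 0.0566 and adjusted p = 0.772). COX10 and COX15 make haem A in successive steps. COX10 was at 0.15, 0.00, 0.88 and 0.07 (0.27 ± 0.41), so that its mean rested on array 3, and COX15 was at -0.11 ± 0.12. COX19, a copper-handling protein, was at 0.22 ± 0.42, and COX16, which joins in the assembly of the core, was at 0.98, 0.18, -1.15 and 0.59 (0.15 ± 0.92). COX18, which inserts a core subunit into the membrane, was above background in 3 HG and 2 CTL pools and was not tested.

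COX7A2L, a factor that joins complexes III and IV into supercomplexes, was at 0.25, 0.22, -1.73 and -0.13 (-0.35 ± 0.94), a mean that came from array 3 alone and was 0.12 without it. A second probe gave the same course, with -1.51 on array 3, but a dimmer probe was at -0.35 there. DMAC2L, named ATP5S on the platform, is a coupling factor with no place in the ATP synthase structure itself and had values from -1.03 to 1.23 around a mean of 0.01.

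Other genes of the pathway were counted from lists. Of 22 tested assembly and accessory genes of complexes III, IV and V with other symbols, 17 (77.3%) had a mean below 0. The share of all tested genes was 53.8%. The median of the 22 was -0.15, and none lay at a limma unadjusted p under 0.05. Lower on every array were 2 (9.09%, close to the 8.03% of all tested genes). The 2 were UQCC1, a complex III assembly factor (-0.44 ± 0.30), and SURF1, a complex IV assembly factor (-0.39 ± 0.17). ATP5IF1, which blocks ATP hydrolysis by the synthase, was at -1.11, -1.79, 0.89 and -0.83 (-0.71 ± 1.14). ATP5MK and ATP5MJ, small membrane subunits outside the symbol rule, were near 0 at -0.06 ± 0.18 and -0.09 ± 0.43. Both are counted among the 22, which are thus not assembly factors alone. NDUFA4, counted here and also with complex I above, was at -0.12 ± 0.52.

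Of 11 tested regulators of respiratory genes, 7 had a mean below 0 (63.6%, against 53.8% of all tested genes). The median was -0.11, and no regulator had the same sign on all 4 arrays. TFAM, which packages and transcribes mitochondrial DNA, was at -0.18 ± 0.51, and the mitochondrial RNA polymerase POLRMT at -0.34 ± 0.39. NRF1, a transcription factor of nuclear respiratory genes, was at -2.06 on array 1 and between 0.10 and 0.30 on the others. The coactivator PPARGC1A was above background in 2 HG pools and 1 CTL pool and was not tested.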

How the data were processed

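RNA of each morula pool was amplified with T7 polymerase and labelled at guanine with Cy3 or Cy5, per the labels' protocols. The scanner files hold raw intensity means and medians per spot and local background at 532 nm (Cy3) and 635 nm (Cy5), uncorrected, per the file headers. The sources used here do not give scanner or program. One deposited table holds the authors' log2 ratios, made with limma per the submitters' processing notes. Against the scanner values it ran as Cy5 over Cy3 (Pearson r between 0.976 and 0.993, slopes between 0.911 and 0.948, column medians between -0.01 and 0.02). Its background correction and normalization stay unknown.

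Mean intensities were corrected with the median local background by normexp (offset 50) and normalized by loess within arrays in limma 3.58.1 (R 4.3.3), with control spots at weight 0 and ignored spots (29 to 151 an array) set to missing. A first run used the mean of the local background pixels. The median replaced it after those results had been seen, because its log ratios correlated better with the authors' table (mean version between 0.937 and 0.981). The mean version is kept as an alternative chosen after seeing the data. Pool signals were further scaled between arrays on mean intensity (Aquantile). Background was judged against 153 negative control spots. Platform symbols named 21790 probes and left 22004 unnamed here. RefSeq names are of assembly ARS-UCD2.0. Each gene's log ratio was tested against 0 (lmFit, eBayes), and p-values were adjusted by Benjamini-Hochberg over all tested genes at a threshold of 0.05. The fit was tested on simulated data. HG and CTL pools of a number share an array, so the ratio is the pair. Whether pools stem from separate fertilizations is not in the labels, and p-values then cover the spread between these pools alone. Members, lists and the rule for named genes (every member, with array values for those lower or higher on every array, the extremes of each complex and the tissue forms) were chosen with earlier results of these data known. Alternatives changed background, normalization, filter, probe summary, dye term and arrays.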

Additional observations from a re-analysis of the deposited data

Results flagged for a closer look

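Of 46 results examined for 1 array far from the other 3 by Dixon's ratio of gap to range, 3 stood out. Chance gives about 1 in 20, so this count was close to the chance share. ATP5PO was at 0.11 on array 1 and between -0.74 and -0.68 on the others. ATP5F1E was at -0.10 on array 3 and between -0.45 and -0.43 on the others. COX10 was at 0.88 on array 3 and between 0.00 and 0.15 on the others. The stromal markers were far from 0 on the same 2 arrays, and their part in these values was not tested.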

How the results depend on the processing

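No gene passed the adjusted threshold of limma under any alternative over all 4 arrays, in the authors' table or without any 1 array (0 to 0). With arrays 2 and 4 alone 33 genes passed, none of them a member; 2 arrays leave the spread resting on 1 degree of freedom per gene. Over the alternatives, 27 to 32 of 34 subunits had a mean below 0 (33 of 37 with no filter), 28 without array 4. Subunits at a limma unadjusted p under 0.05 numbered 2 to 10. The count was 2 without array 4, against 273 of all 8874 tested genes. It was also 2 with array 3 turned, against 1013 of 8874. The 10 were of 37 subunits with no filter, against 828 of 15216 genes. The mean of the local background pixels, chosen after seeing the data, gave 30 of 34 below 0 and a median of -0.31.

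Directions reversed for these means, and the cause was not tested. ATP5F1A was at 0.01 without background correction, with plain subtraction and with the mean local background, and at 0.00 with scale normalization. DMAC2L was at -0.09 with median centring and -0.05 with scale normalization. The authors' deposited table gave COX5A -0.01 and EMC8 0.02. The mean of all probes gave UQCRC1 0.15 and COX5A -0.01. Arrays 2 and 4 alone gave UQCRC1 0.25, DMAC2L -0.60, COX7A2L 0.05, ATP5F1A 0.04 and ATP5PB -0.02. With array 3 turned, COX19 was at -0.03, COX10 at -0.17, UQCRB at 0.25, UQCRC2 at 0.03, COX7A2 at 0.12, COX7A2L at 0.52, ATP5MC3 at 0.42, ATP5F1C at 0.22 and ATP5F1D at -0.15.

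Leaving out 1 array at a time reversed COX16 (-0.13 to 0.58), UQCR10 (-0.33 to 0.08), UQCRH (-0.19 to 0.07), UQCRC1 (-0.37 to 0.25), COX7B (-0.33 to 0.00), COX5A (-0.11 to 0.17), EMC8 (-0.15 to 0.04), DMAC2L (-0.39 to 0.36), COX7A2L (-0.55 to 0.12), ATP5MC3 (-0.79 to 0.06), ATP5F1C (-0.37 to 0.04), ATP5F1A (-0.03 to 0.05) and ATP5PB (-0.19 to 0.38). COX4I1 stayed between -0.77 and -0.53 and ATP5MG between -0.94 and -0.67. The test of the ratio is itself paired, since each array sets the 2 pools of a number against each other, so no further replicate block could be added.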
